A study of Mus musculus with 2 samples.

Results

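Complement is a cascade of secreted proteins that tags targets for removal. C1q, built of chains from C1qa, C1qb and C1qc, starts the classical pathway when it binds a target, C4 and C3 are then cleaved and deposited, and the fragments released are read by receptors on phagocytes. In the nervous system C1q and C3 are known for marking synapses that microglia, the resident macrophages of the parenchyma, then engulf. Here 9 complement genes were followed in single-cell RNA sequencing of mouse spinal cord, out of 32285 genes counted. They were taken by symbol: the C1q genes, C3 and C4b as components, Serping1 as a regulator, and C3ar1, C5ar1 and Itgam as receptors. All 9 had counts in both libraries.

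Whole spinal cords of FVB mice at postnatal day 4 had been dissociated with trypsin and collagenase II, and for each genotype 3 littermates were pooled into 1 library. The SMA mice, of the severe Taiwanese model of spinal muscular atrophy, were mSmn-/- with the human transgene hSMN2 in the 2tg/0 state. The control (Con) mice were mSmn+/- and carried the same transgene, so both groups hold human SMN2 and neither is wild type. Libraries are named below by their labels, since Smn1, the gene altered in SMA mice, was not lower in SMA. Over the named classes without erythroid-like cells it was at 52.0 CPM in SMA and 51.2 CPM in Con (log2 ratio 0.02, -0.06 to 0.11). CPM is the usual scaling of a gene's count to a fixed total. Whether these 3′ tags lie outside the altered part of the gene was not tested.

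There was no replicate of either genotype, so no test between them was possible and each difference below is between 2 libraries. The intervals are exact, at the 95% level, and cover counting error only. The libraries held 85872075 unique molecular identifiers (UMIs, 1 per captured RNA molecule) in 26921 barcodes labelled SMA and 97894084 in 25419 labelled Con. They listed 8163 barcodes in common. Those barcodes were left out of the library labelled SMA and kept in the other, and after the limits on cells 6787 cells labelled SMA and 8918 labelled Con remained. Of the kept Con cells 6557 carried a barcode also listed for SMA. That share was 93.1% in microglia-like cells but 26.8% in fibroblast-like, 14.5% in oligodendrocyte-like and 7.75% in monocyte-like cells. Whether reads of one library entered the other under these barcodes was not tested, so the Con levels and each ratio of SMA to Con below hold for the barcodes as listed. Xist stood at 1.65 CPM in SMA and 624 CPM in Con, so the sexes of the pooled animals cannot be told apart from genotype.

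Of 32 clusters, 31 could be given 1 of 14 classes from marker genes, and all markers of every class were at least 2-fold higher in it than in the other cells. The naming used these same markers, so their levels are no separate check of it. Names end in "-like" because the classes were rebuilt from the counts. COP stands for committed and OPC for uncommitted oligodendrocyte precursors. A class entered the comparisons if both libraries gave it 50 cells or more, which held for 11. The macrophage-like (38 SMA, 64 Con cells), monocyte-like (20 and 284) and neuron-like (43 and 26) classes fell short, and their values are given with these cell numbers and enter no count of genes 2-fold apart. Each level sums the UMIs of all cells of 1 class, and since each molecule gives 1 tag at its 3′ end, CPM can be set side by side between genes without a correction for length.

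The C1q genes lie next to each other on chromosome 4, on the minus strand, within chr4:136880129-136898803 (18675 bases, GRCm38, GENCODE M21). The other members lie apart, C3 on chr17:57203970-57228136, C4b on chr17:34728380-34743882, C3ar1 on chr6:122847138-122856161, C5ar1 on chr7:16246743-16259540, Itgam on chr7:128062640-128118491 and Serping1 on chr2:84765387-84775444. Promoter sequences were found for 6 of the 9 in a RefSeq table of GRCm38.p6. The 3 shown are those that hold the letters marked below, and each is the 250 bases before the RefSeq transcription start, 5′ to 3′ on the gene's own (minus) strand. C1qb is at chr4:136886201-136886450, C1qc at chr4:136892915-136893164 and C5ar1 at chr7:16259339-16259588. The RefSeq starts of C1qc and C5ar1 lie inside the GENCODE spans above, so most of these windows overlaps those spans. Capitals mark AGGAAGT or its reverse complement ACTTCCT, a core of sites bound by the ETS factor PU.1, which is known to be needed for macrophages and microglia.
C1qb: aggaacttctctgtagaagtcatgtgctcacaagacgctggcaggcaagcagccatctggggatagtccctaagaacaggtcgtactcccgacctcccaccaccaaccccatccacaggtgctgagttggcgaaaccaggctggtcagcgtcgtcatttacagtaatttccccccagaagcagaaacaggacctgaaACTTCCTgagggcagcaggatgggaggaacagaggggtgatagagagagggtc
C1qc: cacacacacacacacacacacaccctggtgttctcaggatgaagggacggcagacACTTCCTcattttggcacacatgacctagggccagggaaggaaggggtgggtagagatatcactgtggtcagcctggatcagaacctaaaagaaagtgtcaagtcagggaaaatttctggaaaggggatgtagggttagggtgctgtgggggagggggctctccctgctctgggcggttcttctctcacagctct
C5ar1: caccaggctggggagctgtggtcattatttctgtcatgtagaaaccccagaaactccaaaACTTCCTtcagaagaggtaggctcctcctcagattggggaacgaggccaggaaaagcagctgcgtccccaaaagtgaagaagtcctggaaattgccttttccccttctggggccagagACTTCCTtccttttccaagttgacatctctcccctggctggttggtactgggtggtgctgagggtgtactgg

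All 4 matches were of ACTTCCT on the printed strand, and began 53 bases before the start in C1qb, 195 in C1qc and both 190 and 72 in C5ar1. The same letters were absent from these windows of C3, C3ar1 and Itgam, of which C3ar1 and Itgam, like C1qb, C1qc and C5ar1, had most of their counts in myeloid cells. Of 32851 promoters of the same length 2525 (7.69%) held either form. The letters were chosen after the sequences had been seen, and a match is a description and not a site.

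The C1q genes were the most abundant members, and microglia-like cells were their main place in both libraries. C1qa, the A chain, was at 5809 CPM in SMA microglia-like cells (95% interval 5755 to 5863) and 5527 CPM in Con (5470 to 5585). C1qb, the B chain, was at 4245 and 3825 CPM, and C1qc, the C chain, at 3801 and 3404 CPM. Microglia-like cells held 90.7% of the C1q UMIs of all named cells labelled SMA and 82.0% of those labelled Con. Every one of 1049 SMA and 857 of 858 Con microglia-like cells had UMIs of all 3 chains. After each cell had been thinned to 1000 UMIs, C1qa was still seen in 98.5% of SMA and 97.6% of Con microglia-like cells.

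The chains kept nearly the same proportions. C1qa made up 41.9% of C1q UMIs in SMA microglia-like cells (41.6 to 42.2) and 43.3% in Con (43.0 to 43.7), C1qb 30.6% and 30.0%, and C1qc 27.4% and 26.7%. Across 24 levels, of classes with at least 50 cells in a library, C1qc (Pearson r = 0.999), C1qb (0.998) and Tyrobp (0.994), a signalling adaptor of myeloid cells, were the genes most like C1qa among 14363 genes. These points share libraries, and the r values are descriptions.

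Macrophage-like cells, led by Lyve1, Pf4 and F13a1 as macrophages at the borders of the cord are, held C1q at a lower level. C1qa was at 4661 CPM in the 38 SMA cells (4442 to 4888) and at 3603 CPM in the 64 Con cells (3457 to 3753). The C1qa intervals of microglia-like and macrophage-like cells were apart in each library. Monocyte-like cells had C1qa at 67.9 CPM in 20 SMA cells (6 UMIs) and 3997 CPM in 284 Con cells (2304 UMIs). The shared-barcode share of those Con cells is the low one given above, their median was 1487 UMIs against 3849 in SMA, and the genes that led their cluster held S100a8, Hp, Plbd1 and Ly6c2, known from monocytes and granulocytes, beside Ms4a7, H2-Aa and Ccl8, known from macrophages and antigen-presenting cells. With so few SMA cells these values are not compared. A cluster of 148 SMA and 291 Con cells that stayed unnamed, since another class led its top genes, held C1q at 9663 and 7666 CPM.

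**Figure D1:**
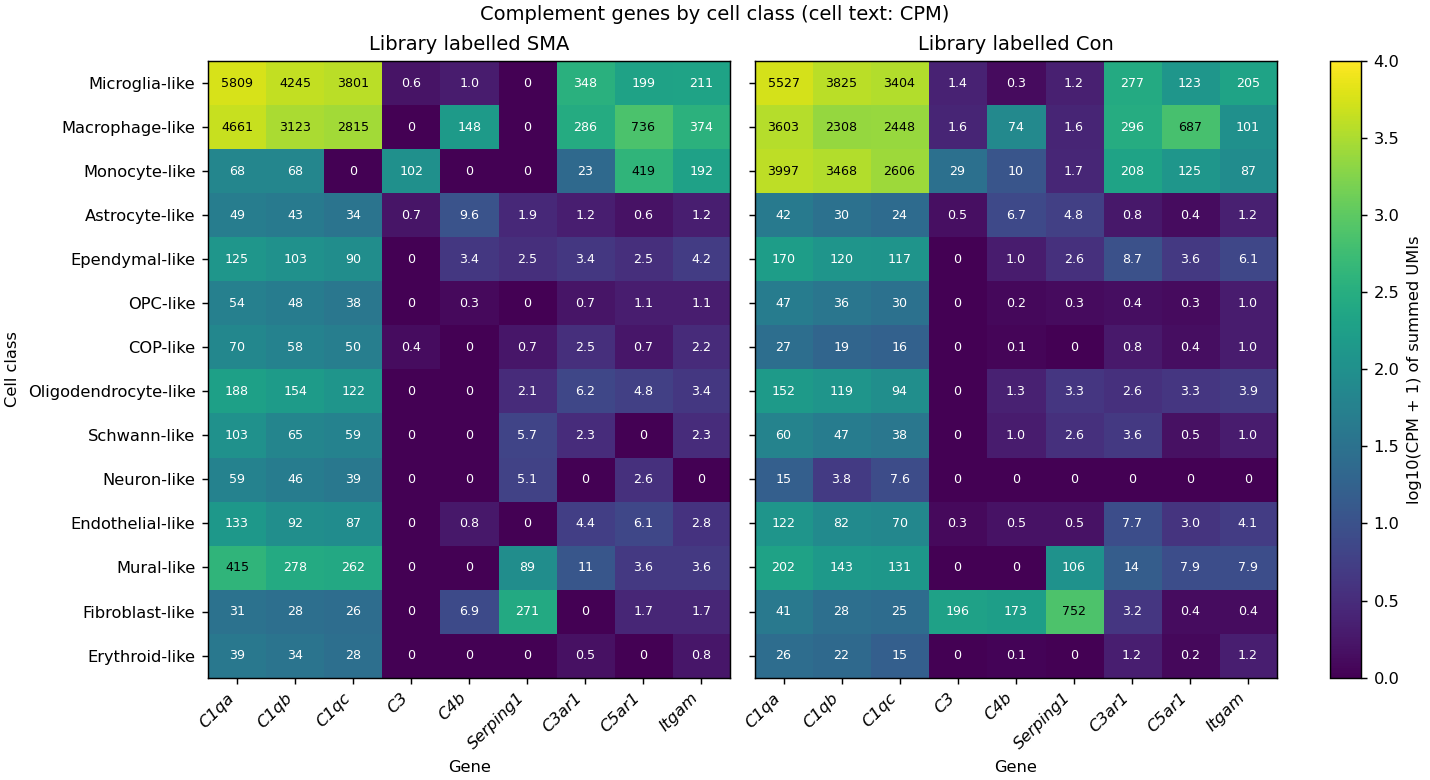
Level of each of the 9 complement genes in 14 cell classes, as log10(CPM + 1) of the summed UMIs of each class, for SMA (left) and Con (right), with the CPM printed in each square. C1qa, C1qb and C1qc and the receptors are brightest in myeloid rows, except for the C1q genes in the monocyte-like row of SMA. C3, C4b and Serping1 are brightest in the fibroblast-like row of Con.

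Between the libraries, C1q in microglia-like cells differed little. The sum of the chains was at 13855 CPM in SMA (107198 UMIs) and 12756 CPM in Con (82056 UMIs), a log2 ratio of 0.12 (0.11 to 0.13). By gene the log2 ratio was 0.07 for C1qa, 0.15 for C1qb and 0.16 for C1qc, each with an interval above 0. The median over all 8478 genes with at least 100 UMIs in these cells was 0.05, and 0.684% of these genes stood 2-fold or more apart. None of the 6 members that reached 100 UMIs there did.

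Other microglial genes did not all move the same way. Of 11 companion genes chosen to mark microglia and related cells, 3 had a log2 ratio whose interval lay above 0, 6 below 0 and 2 across 0. Trem2, a receptor of microglia for lipids, was at 1209 CPM in SMA and 1033 in Con, and Fcer1g, an Fc receptor subunit, at 2273 and 2029. Cx3cr1, also with an interval above 0, was at 1264 and 1185 CPM. P2ry12, the purinergic receptor that marks resting microglia, was at 1314 and 1655 CPM and Tmem119 at 227 and 293. In macrophage-like cells the C1q sum was at 10599 CPM in SMA and 8359 in Con, a log2 ratio of 0.34 (0.28 to 0.40) over 38 and 64 cells, while the companion sum was at 7646 and 8078 CPM.

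Microglia-like cells were divided into 11 sub-clusters without use of complement genes, and C1q was present at a high level in each. The sub-cluster led by Spp1, Lpl and Cst7, genes known from phagocytic microglia, had the highest C1q sum, 16320 CPM in SMA and 15547 in Con. A sub-cluster led by Ms4a7 and Clec12a had 15790 and 13928 CPM. Cells led by genes of DNA replication (Ung, Uhrf1, Mcm10) had 14216 and 11947 CPM, and those led by mitotic genes (Nusap1, Mki67, Top2a) had 11325 and 10143 CPM. The 3 lowest were the sub-clusters led by genes of other cell types, with 10226 and 9498 CPM beside astrocyte genes such as Aqp4, 9891 and 8115 CPM beside Pdgfra and other OPC genes, and 6971 and 6113 CPM beside globins. In the 9 sub-clusters with at least 20 cells of each library, the C1q sum was higher in SMA each time, with log2 ratios of 0.07 to 0.29 and every interval above 0. These cells come from the same 2 libraries, so the 9 are no replicates.

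The receptors lay where C1q did, at much lower levels. Myeloid classes held 97.6% of C3ar1, 97.1% of C5ar1 and 96.5% of Itgam UMIs of named SMA cells, and 94.6%, 96.2% and 94.0% in Con. C3ar1, the receptor for the C3 fragment C3a, was at 348 CPM in SMA microglia-like cells (335 to 361) and 277 CPM in Con (265 to 291), with a log2 ratio of 0.33 (0.24 to 0.41). C5ar1, the receptor for the C5 fragment C5a, was at 199 CPM in SMA (189 to 209) and 123 CPM in Con (115 to 132). Its log2 ratio of 0.69 (0.57 to 0.82) was the largest of the 6 members with at least 100 UMIs in these cells. The other members had 14 UMIs or fewer there over both libraries. Itgam, the alpha chain of complement receptor CR3, which binds deposited C3 fragments, was at 211 and 205 CPM, a log2 ratio of 0.04 (-0.06 to 0.15).

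The difference in C5ar1 was also seen as a share of cells. It had a UMI in 54.8% of SMA and 38.8% of Con microglia-like cells, at median depths of 6918 and 7176.5 UMIs per cell. After thinning to 1000 UMIs the shares were 15.3% (13.1 to 17.6) and 10.0% (8.10 to 12.2), and no cell had been too shallow. In OPC-like cells, which are not known to use this receptor, the thinned shares were 0.103% and 0.122%, 2 cells in each library, at median depths of 5609 and 5766. Unthinned, 0.617% of SMA (12 UMIs) and 0.182% of Con (3 UMIs) OPC-like cells had a C5ar1 UMI, at 1.05 and 0.303 CPM, far below the microglia-like levels, with a log2 ratio of 1.80 (-0.09 to 4.27). C3ar1 was found in 29.8% of SMA (27.1 to 32.7) and 25.5% of Con (22.6 to 28.6) thinned microglia-like cells. For Itgam these shares were 19.3% and 18.3%, with intervals that overlapped widely.

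**Figure D2:**
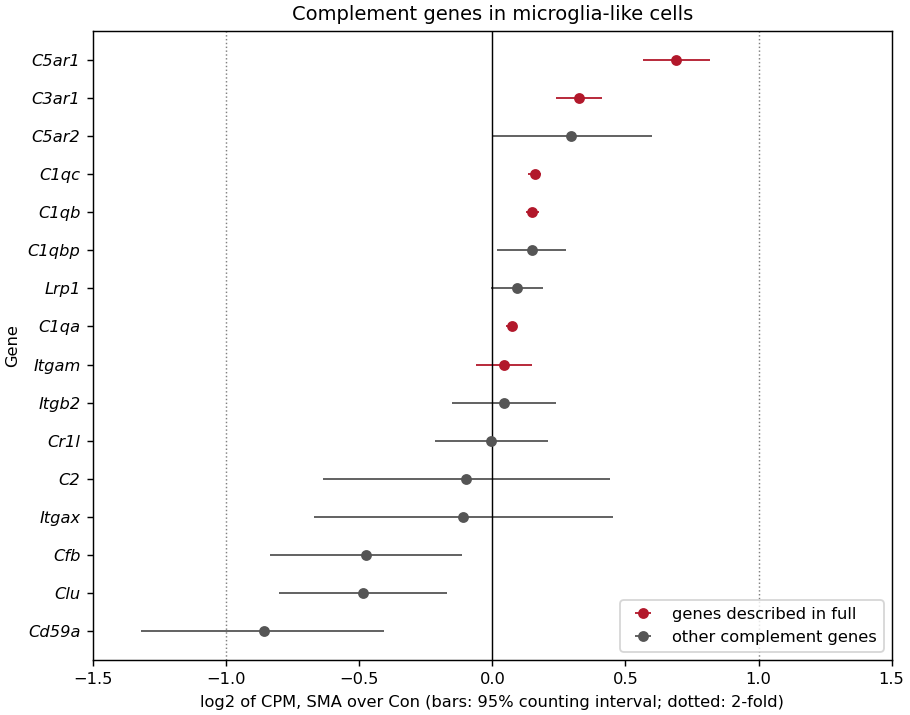
Log2 ratio of CPM, SMA over Con, in microglia-like cells for members (red) and other complement genes (grey) with at least 100 UMIs there, with 95% counting intervals and dotted lines at 2-fold. C5ar1 (0.69) and C3ar1 (0.33) lie farthest to the right, the C1q genes lie between 0.07 and 0.16, and no gene shown reaches 2-fold.

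C5ar1 varied more among sub-clusters than C1q. It was highest in the sub-cluster led by Ccl2, Il1b and Egr3, that is by cytokine and immediate early genes, with 352 CPM in SMA and 259 in Con. That sub-cluster held 285 of 1049 SMA microglia-like cells (27.2%) and 122 of 858 Con (14.2%). Without it C5ar1 was at 149 CPM in SMA and 103 in Con, a log2 ratio of 0.54 (0.39 to 0.70), and C3ar1 had a log2 ratio of 0.24 (0.14 to 0.34). Immediate early genes are known to respond to enzymatic dissociation, and their part in the C5ar1 level was not tested. The ratio of C5ar1 was largest in the sub-cluster led by Acp5 and Tnfrsf17, at 165 CPM in SMA and 75.4 in Con (log2 1.13, 0.77 to 1.48). In the Spp1-led cells it was at 107 and 116 CPM, with an interval across 0 (-0.49 to 0.26). Over the 9 sub-clusters compared, C5ar1 was higher in SMA in 8, with 4 intervals above 0 and 0 below, and C3ar1 in 8 with 5 above and 0 below. Itgam was higher in 6, with 1 interval above 0.

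**Figure D3:**
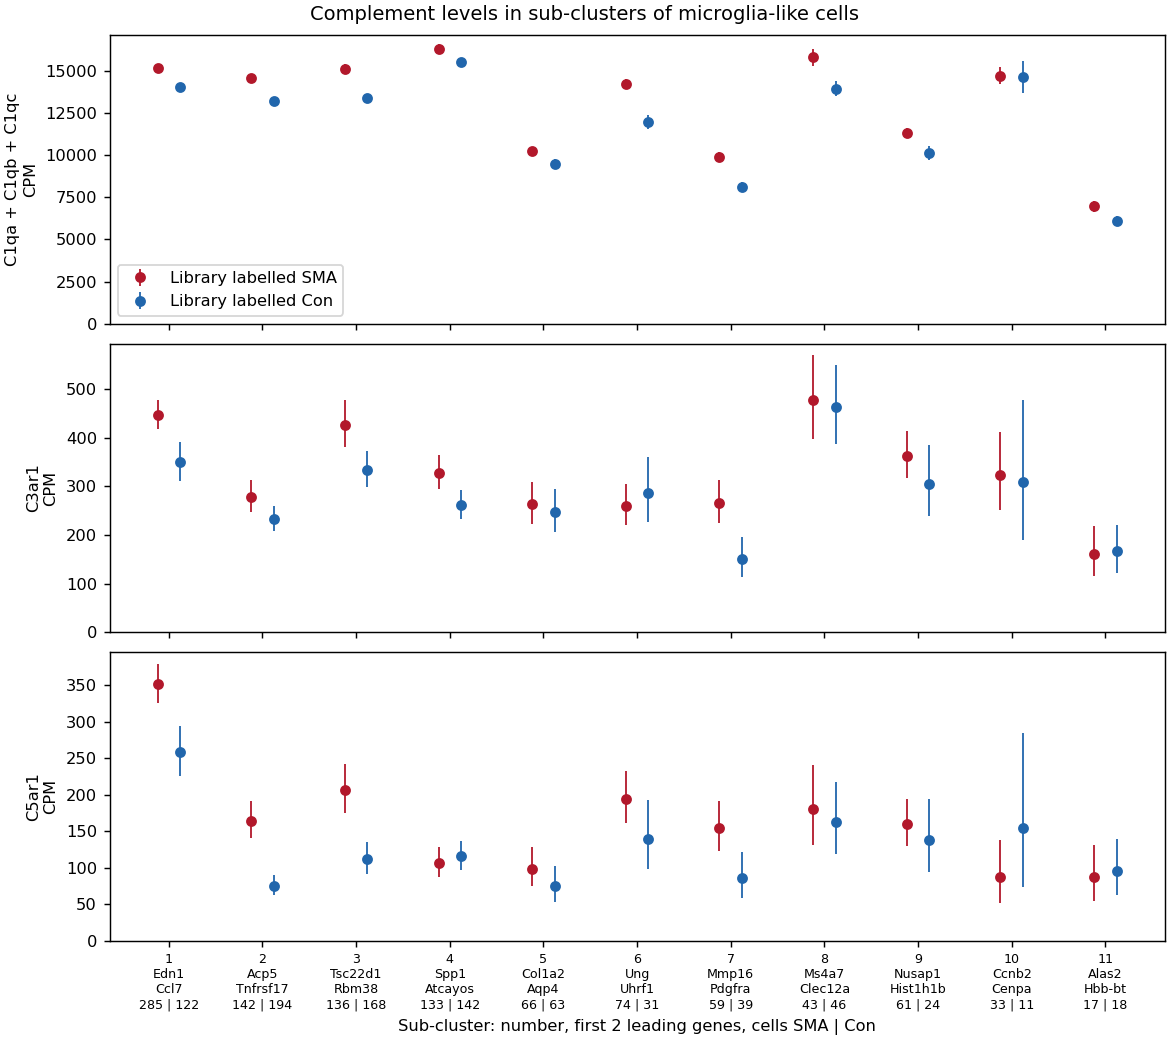
CPM of the C1q sum, C3ar1 and C5ar1 in 11 sub-clusters of microglia-like cells, with 95% Poisson intervals, for the library labelled SMA (red) and Con (blue), and cell numbers under each sub-cluster. C1q lies between 6113 and 16320 CPM throughout, whereas C5ar1 peaks in sub-cluster 1 at 352 CPM in SMA and 259 in Con.

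In macrophage-like cells C5ar1 was the leading receptor. It stood at 736 CPM in SMA (651 to 830) and 687 in Con (624 to 754), above its microglia-like level in both libraries. C3ar1 was at 286 and 296 CPM there, and Itgam at 374 CPM in SMA (136 UMIs) and 101 CPM in Con (64 UMIs). The Itgam UMIs lay in 22 of 38 SMA and 27 of 64 Con cells, and 1 SMA cell held 26 of the 136. After thinning, Itgam was seen in 23.7% of SMA (11.4 to 40.2) and 10.9% of Con cells (4.51 to 21.2), with overlapping intervals. Itgb2, the beta chain that pairs with Itgam in CR3, was at 206 CPM in SMA and 85.1 in Con in macrophage-like cells. In microglia-like cells it was at 62.4 and 60.6 CPM. Monocyte-like cells had C5ar1 at 419 CPM in SMA (37 UMIs) and 125 CPM in Con (72 UMIs). In the unnamed cluster, where C1q was high, C3ar1 was at only 66.8 and 46.6 CPM and C5ar1 at 22.3 and 6.21 CPM.

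Outside the myeloid classes C1q was found in every class, at 0.614% to 6.89% of the microglia-like level in SMA and 0.208% to 3.73% in Con. The 11 companion genes were found there in the same way, at 0.713% to 7.34% and 0.394% to 3.85%. The C1q percent divided by the companion percent had a median of 0.940 over 11 classes in SMA and 0.848 in Con. The levels were highest in mural-like cells, with C1q at 6.89% and the companions at 7.34% in SMA and 3.73% and 3.85% in Con. Astrocyte-like cells had 0.906% and 1.42% in SMA and 0.756% and 1.38% in Con.

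**Figure D4:**
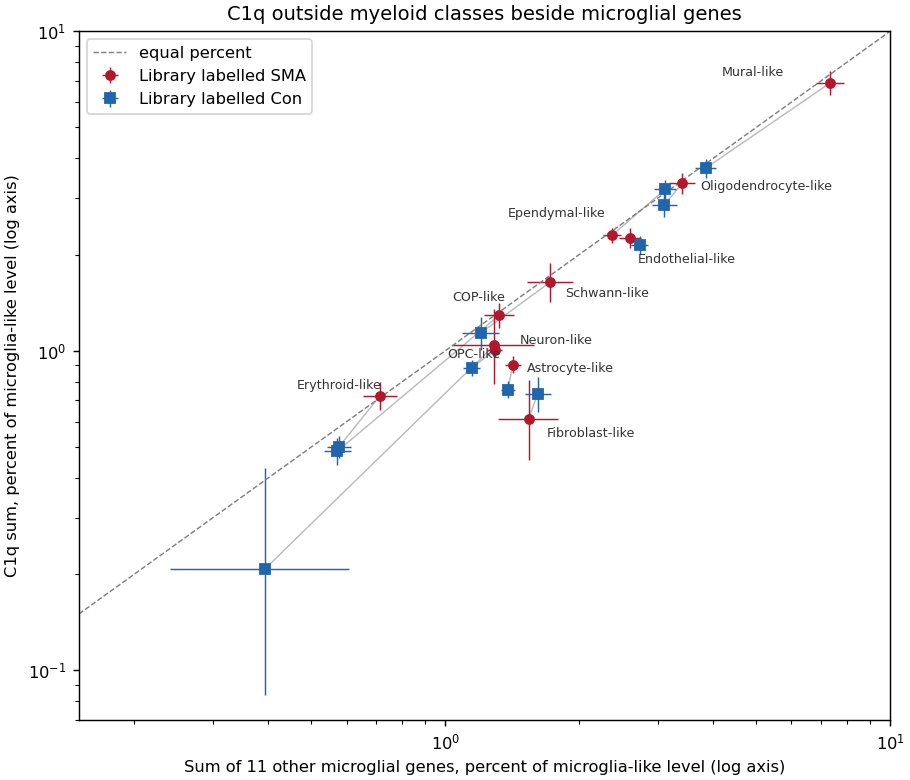
C1q sum against the sum of 11 other microglial genes, each as a percent of its microglia-like level in the same library, in 11 non-myeloid classes on log axes, with 95% counting intervals, a grey line joining both libraries of a class and a dashed line at equal percents. The C1q percent is 0.399 to 1.03 times the companion percent, and points run from neuron-like cells of Con (0.208%) to mural-like cells of SMA (6.89%).

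Within astrocyte-like cells C1q was held by few cells. The 57 SMA cells (4.32%) with 5 or more C1q UMIs carried 62.0% of the C1q UMIs of the class, and 58 Con cells (3.62%) carried 62.4%. The companion genes stood at 1964 CPM in those SMA cells and 128 CPM in the SMA cells with 0 C1q UMIs, and at 2281 and 148 CPM in Con. The cells with 1 to 4 C1q UMIs, 20.1% of SMA and 15.6% of Con, lay between, at 343 and 387 CPM. Astrocyte-like cells with more C1q UMIs thus had higher companion levels, although the many cells with 0 C1q UMIs held 811 of the 2181 companion UMIs in SMA and 1281 of 2853 in Con. The source of C1q reads outside myeloid classes, be it the cells themselves, free RNA, adhering fragments or joined cells, was not tested.

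The C1q differences of 2-fold or more in such classes are given beside the companions. In COP-like cells C1qa was at 70.3 CPM in SMA and 26.6 in Con, C1qb at 58.4 and 18.9, and C1qc at 50.4 and 16.3. The C1q sum had a log2 ratio of 1.53 (1.35 to 1.72) there and the companion sum 1.12 (0.97 to 1.27). In mural-like cells C1qa was at 415 and 202 CPM and C1qc at 262 and 131 CPM, with the C1q sum at 1.01 (0.85 to 1.16) and the companion sum at 0.84 (0.71 to 0.98). In neuron-like cells (43 SMA, 26 Con) the C1q sum was at 144 and 26.6 CPM, over 56 and 7 UMIs. Its log2 ratio was 2.44 (1.30 to 3.82), and that of the companion sum 1.62 (0.91 to 2.40). The C1q and companion ratios had the same sign in 9 of 11 classes, the small neuron-like class included. They were within 0.5 of each other in 10, the neuron-like class being the one outside. The receptors stayed below 15 CPM in all of these classes.

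C3, the component on which all complement pathways meet, was nearly absent from microglia-like cells, at 5 UMIs in SMA and 9 in Con. Of its 579 UMIs in named Con cells 546 (94.3%) were in fibroblast-like cells, at 196 CPM (180 to 213), while the 62 SMA fibroblast-like cells had 0 UMIs. A count of 0 allows up to 3 counts, or 5.21 CPM, so against that floor C3 was at least 37.6-fold lower in SMA. The exact interval of the log2 ratio, a wider limit, ended at -4.93. C4b, the C4 component of the classical pathway, was at 6.94 CPM in SMA (4 UMIs) and 173 CPM in Con (481 UMIs) in the same class, a log2 ratio of -4.64 (-6.52 to -3.27). C4b is almost identical to C4a, which had 13 UMIs in each library, and how reads were divided between them was not tested. Serping1, the C1 inhibitor that shuts off the first proteases of the cascade, was at 271 CPM in SMA (230 to 317) and 752 in Con (720 to 785), a log2 ratio of -1.47 (-1.72 to -1.24).

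These levels belonged to 1 cluster of fibroblast-like cells, led by Mfap5, Timp1, Serpinb2 and Ptx3, that held 2 SMA and 433 Con cells. It carried 545 of the 546 C3 UMIs, 471 of the 481 C4b UMIs and 1556 of the 2095 Serping1 UMIs of Con fibroblast-like cells. Its Con cells stood apart in other measures too. They had a median mitochondrial share of 2.08% and 2800 UMIs, against 6.27% and 8444 UMIs in the other 168 Con fibroblast-like cells. Among cells of 5000 UMIs or more, 2 of its 69 shared a barcode with the SMA list, against 150 of 150 in the others. Whether its cells came from the same tissue preparation was not tested. Without it, 60 SMA and 168 Con cells were left, with 0 and 1 UMI of C3, 4 and 10 UMIs of C4b (7.12 and 6.97 CPM), and Serping1 at 264 and 376 CPM, a log2 ratio of -0.51 (-0.78 to -0.25). The C3 and C4b differences over all fibroblast-like cells thus rested on that cluster, and the Serping1 log2 ratio moved from -1.47 to -0.51 without it.

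Sub-clusters of the fibroblast-like cells divided the members further. Cells led by Zbtb16, Akr1c18 and Pcolce2 (161 Con, 0 SMA) had the highest levels, with C3 at 1000 CPM (894 to 1114), C4b at 853 and Serping1 at 2015. Cells led by Serpinb2, Cxcl5 and Nos2 (180 Con, 0 SMA) had C3 at 221, C4b at 192 and Serping1 at 710 CPM, and those led by Comp and Thbs4 (91 Con, 0 SMA) had 185, 167 and 1336 CPM. In the 1 sub-cluster with at least 20 cells of each library, led by Ptgds and Serpind1 (48 SMA, 82 Con), C3 had 0 UMIs in both. Serping1 there was at 328 CPM in SMA (277 to 386) and 238 in Con (202 to 278), a log2 ratio of 0.46 (0.13 to 0.80), opposite in sign to that of the whole class. A smaller sub-cluster (12 SMA, 28 Con), led by genes known from other cell types such as Rgs5 of mural cells and Lhfpl3 of OPCs, had it at 42.4 CPM in SMA (13.8 to 99.0, 5 UMIs) and 158 in Con (112 to 216, 38 UMIs). The last, led by Alpl and Crym, was nearly all Con (2 SMA, 59 Con) and had Serping1 at 653 CPM in Con (344 UMIs) and 6 UMIs in SMA, so the ratio without the Mfap5-led cluster also compares unlike mixtures of cells.

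**Figure D5:**
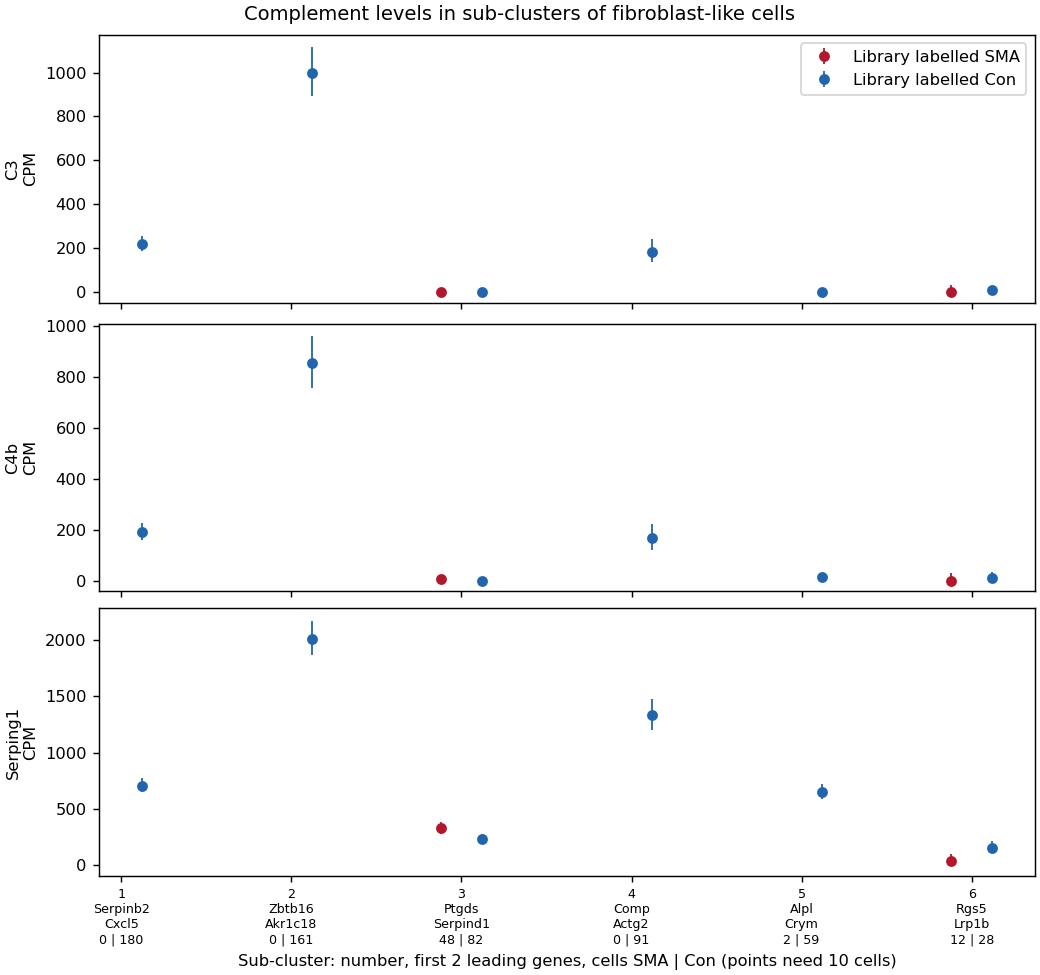
CPM of C3, C4b and Serping1 in 6 sub-clusters of fibroblast-like cells, with 95% Poisson intervals, in the library labelled SMA (red) and Con (blue), for sub-clusters with at least 10 cells of a library. C3 and C4b rise above 100 CPM in sub-clusters 1, 2 and 4, which held Con cells and 0 SMA cells.

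The genes most like C3 over the 24 levels were Ifi211 (r = 0.969), Gm12840 (0.955) and Saa3 (0.944). Those most like C4b were Cd44 (0.856), Serpinb2 (0.840) and Wnt2 (0.823), and those most like Serping1 were Ddr2 (0.957), Col6a1 (0.944) and Loxl1 (0.942), genes of matrix and its sensing. For C3 and C4b the r values rest largely on the fibroblast-like level of Con.

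C4b and Serping1 had further sources. In macrophage-like cells C4b was at 148 CPM in SMA (111 to 194, 54 UMIs in 15 of 38 cells) and 74.0 CPM in Con (54.4 to 98.5, 47 UMIs in 18 of 64 cells). In astrocyte-like cells it was at 9.56 CPM in SMA (81 UMIs) and 6.72 in Con (72 UMIs), a log2 ratio of 0.51 (0.03 to 0.99). Most of it was in the astrocyte-like cluster led by Gfap, Cidea and Hopx, at 28.5 CPM in SMA and 17.7 in Con, against 5.26 and 2.74 CPM in the largest astrocyte-like cluster. C4b had a UMI in 4.78% of SMA and 3.56% of Con astrocyte-like cells, at median depths of 5922.5 and 6070 UMIs. After thinning it was in 5 of 1318 SMA cells (0.379%, 0.123 to 0.883) and 11 of 1603 Con cells (0.686%, 0.343 to 1.22), which goes against the CPM with overlapping intervals, so no order is read from the shares. Serping1 was at 89.1 CPM in SMA mural-like cells (65.9 to 118) and 106 in Con (91.9 to 123), a log2 ratio of -0.26 (-0.74 to 0.20). In astrocyte-like cells it had 16 UMIs in SMA and 51 in Con (1.89 and 4.76 CPM), and in microglia-like cells 0 and 8.

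C3 was the member nearest to 0 elsewhere. In SMA it had 21 UMIs over all named cells, of which 9 were in the 20 monocyte-like cells, 6 in astrocyte-like and 5 in microglia-like cells. Of the 6 in astrocyte-like cells 5 were in 1 cell. In OPC-like cells it had 0 UMIs in both libraries, which allows up to 0.264 CPM in SMA and 0.303 in Con.

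The members were read beside 48 other complement genes, of which 44 had UMIs. Among the other initiators Fcna, a ficolin of the lectin pathway, was at 2340 CPM in SMA and 1445 in Con in macrophage-like cells and at 3.23 and 2.49 CPM in microglia-like cells. Colec12, a scavenger collectin, was at 233 and 137 CPM in fibroblast-like cells. OPC-like cells were the main source of Masp1, a protease of the lectin pathway, with 78.7 and 85.4 CPM. The proteases that C1q carries, C1r and C1s, were found mainly in Con fibroblast-like cells, with C1ra at 44.1 CPM (123 UMIs) and C1s1 at 68.5 CPM (191 UMIs), of which 116 and 176 UMIs lay in the Mfap5-led cluster. SMA fibroblast-like cells had 5 and 2 UMIs, and all kept SMA cells 20 and 24.

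Of the other convertase genes Cfp, which encodes properdin, was at 709 CPM in SMA and 514 in Con in macrophage-like cells. Cfb, factor B of the alternative pathway, had 463 UMIs (166 CPM) in Con fibroblast-like cells, 462 of them in the Mfap5-led cluster, and 0 in SMA, at least 31.9-fold lower against the floor of 3 counts, with the exact interval of the log2 ratio ending at -4.69. In microglia-like cells Cfb was at 15.8 and 21.9 CPM (log2 -0.48, -0.84 to -0.12). C2 was at 8.27 and 8.86 CPM there, and in fibroblast-like cells at 15.6 and 33.7 CPM. Of the terminal genes Hc, which encodes C5, was at 27.0 and 32.2 CPM in ependymal-like cells, and C8g had 65 and 64 UMIs in all. C6, C7, C8a, C8b and C9 had at most 1 UMI per library.

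Regulators had sources of their own. Vtn, vitronectin, was at 3749 CPM in SMA and 4136 in Con in mural-like cells, and Clu, clusterin, at 507 and 538 CPM in astrocyte-like cells. Cd59a, an inhibitor of the terminal pathway, was at 8.92 and 16.2 CPM in microglia-like cells, the lowest log2 ratio of the tested list in them (-0.86, -1.32 to -0.41). Of the other receptor genes Cd93 was at 283 and 341 CPM in endothelial-like cells, and Lrp1 at 253 and 238 CPM in microglia-like cells.

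Counted over the whole list, no complement gene with at least 100 UMIs stood 2-fold or more apart in microglia-like cells, while some did in other classes. Of the list genes with at least 100 UMIs, 0 of 17 did so in microglia-like cells (0.684% of all genes there), 0 of 15 in astrocyte-like (0.845%), 0 of 14 in ependymal-like (0.426%), 0 of 5 in Schwann-like (2.36%) and 0 of 7 in erythroid-like cells (1.98%). In OPC-like cells 1 of 14 did, Vtn at 3.25 CPM in SMA and 6.86 in Con (0.509% of all genes), and in oligodendrocyte-like cells 1 of 7, Vtn at 38.4 and 77.4 CPM (1.81%). In endothelial-like cells it was 1 of 10, Clu at 15.4 and 31.2 CPM (1.61%). The 9 members are part of these counts. Vtn stood at 3749 CPM in SMA and 4136 in Con in mural-like cells. The source of its far fewer reads in OPC-like and oligodendrocyte-like cells was not tested. In COP-like cells the 3 called of 12 were the C1q genes (0.669%), all 3 members tested there, read above beside the companions. In mural-like cells 4 of 11 were called (2.77%), of which 2 of the 4 members tested, C1qa and C1qc. The others included Cd93, at 21.8 and 54.7 CPM. In COP-like and mural-like cells the share of list genes called was thus above that of all genes. In OPC-like, oligodendrocyte-like and endothelial-like cells it was above too, but rests on 1 gene each.

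Fibroblast-like cells had the most list genes called, 12 of 17, with 4 higher and 8 lower in SMA. Of all genes 17.8% were called there. Of the members 3 of 4 tested were called. The 8 lower were C1ra, C1s1, C3, C4b, C2, Cfb, Serping1 and Cd55, and the 4 higher included Clu, Vtn and Cd59a. With the Mfap5-led cluster left out, Clu was at 372 CPM in SMA, where 97 of 209 UMIs were in 1 cell, and 39.1 in Con, and Vtn at 2349 and 1870. C2 (9 and 3 UMIs) and Cd55 (11 and 10 UMIs) then stood higher in SMA, at 16.0 and 2.09 CPM and at 19.6 and 6.97 CPM. The list as a whole had a median log2 ratio of 0.07 in microglia-like cells, against 0.05 over all genes tested.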

How the data were processed

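Raw UMI counts per gene and barcode had been deposited by the authors for 1 library labelled SMA and 1 labelled Con, made with Cell Ranger (4.0.0 per the file headers, another version per the study's methods) on mm10 per the labels. The counts were not normalized, and the lowest barcodes held 737 (SMA) and 519 (Con) UMIs. The other deposited columns, barcodes and gene names, hold no measurement.

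Kept barcodes had 200 to 4000 genes and less than 10% mitochondrial UMIs. Removed next were SMA barcodes also listed in Con and a cluster with a median ribosomal share over 30% (1338 Con barcodes). The limit of 4000 genes was the only treatment of doublets. Cells (10000 counts per cell, log scale, 2000 variable genes, 30 components, 20 neighbours, Louvain at resolution 1, no correction between libraries) were clustered without the complement genes in Python 3.11.15 (scikit-learn 1.9.0, python-igraph 0.11.9). A cluster was named for the class with most markers among its 60 leading genes or, where these held none (4 clusters, named OPC-like or astrocyte-like), with most markers detected at 2-fold or more. At least 3 such markers were needed, and no other class could lead its top 10.

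UMIs were summed per class and library and scaled to CPM. Levels have exact Poisson, shares of cells exact Clopper-Pearson, and ratios exact conditional binomial intervals. No test was run, as each group was 1 library. Ratio code was tested on simulated data. "Called" means 2-fold or more apart among genes with at least 100 UMIs. Named were all 9 members, other complement genes that were called and the 3 of highest CPM in each role. C4a, C8g and the terminal genes near 0 UMIs, leading genes of clusters, and the companions singled out were named after their values were seen. Some genes are counted but not reported here. The members and gene lists were chosen with earlier results of these data known. Depth was 85872075 UMIs (SMA) and 97894084 (Con).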

Additional observations from a re-analysis of the deposited data

Results flagged for a closer look

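C1q was also measured in barcodes left out of the comparisons, where its sum stood above the limit that a count of 0 allows. In barcodes with a mitochondrial share of 10% or more it was at 1955 CPM in SMA and 1270 CPM in Con. In barcodes with more than 4000 genes it was at 923.5 CPM in SMA and 488.1 CPM in Con. The SMA barcodes also listed in Con had 1696 CPM. The unnamed cluster had 9663 CPM in SMA and 7666 CPM in Con. No group held 4 samples, so outlying samples were not looked for.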

How the results depend on the processing

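Results were recomputed under those of 13 alternatives that apply to them. Of these, 2 (the Mfap5-led fibroblast-like cluster left out, and the microglia-like sub-clusters led by genes of other classes left out) were chosen after seeing the data. The C1q log2 ratio in microglia-like cells (0.12) stayed above 0 throughout. It was 0.10 with the shared SMA barcodes kept (0.0981), 0.0917 in cells of at least 5000 UMIs, 0.104 with mitochondrial shares up to 20%, 0.142 without the upper gene limit, 0.0725 when centred on the median gene, 0.101 at Louvain resolution 0.5 and 0.106 without the sub-clusters led by other classes. In macrophage-like cells (0.34) it was 0.446 with shared barcodes kept, 0.426 in deep cells, 0.439 at 20% and 0.403 without the gene limit. Serping1 in fibroblast-like cells (-1.47) was -0.588 in deep cells, -2.03 with each cell weighted equally and -0.512 without the Mfap5-led cluster, where C4b turned from -4.64 to 0.0305 over 4 and 10 UMIs. The count of complement genes past 2-fold in microglia-like cells was 0, and 1 with a minimum of 50 UMIs, which added Vtn (21 and 65 UMIs). C4b in astrocyte-like cells stayed within its counting interval under every alternative run for it. Of 345 recomputed values of 38 member and class pairs, 284 stayed within the counting interval of the main value, 60 left it and 1 reversed. The sign differed from the main value in 17, all but that 1 being ratios of C1q genes, Itgam or Serping1. Depth limited members with counts of 0 in a class, since these allow up to 3 counts. No replicate could be left out, and no paired analysis was possible because each group was 1 library.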
